A study of Mus musculus with 6 samples.

Results

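The 79 genes described here encode the carriers, pumps and channels that move ions, metals and water across kidney cell membranes, together with some of their accessory subunits and regulators. They were taken from the deposited table by gene name: the Slc4, Slc8, Slc9, Slc11, Slc12, Slc13, Slc20, Slc24, Slc26, Slc30, Slc31, Slc34, Slc39, Slc40 and Slc41 carrier families, the Na,K-ATPase, calcium and copper pumps, FXYD proteins, potassium, sodium and chloride channels, anoctamins, Cftr, TRP channels, polycystins, aquaporins and WNK kinases. Slc12a1, Slc12a3, Slc8a1, Slc4a1, Slc4a4, Slc4a9, Slc26a4, Trpm6, Trpv5 and Fxyd4 were left out by the same rule. The table lists 7340 genes, so the members are 79 of them. In the mouse annotation 284 protein-coding symbols follow the rule. The table holds only genes that passed the authors' own test at an unadjusted p below 0.05, so a gene outside it was not analysed here, and every share below describes listed genes.

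Both groups were labelled as kidney from mice of WT genotype, although the series' design text speaks of tumors. In the first, ischaemia-reperfusion injury (IRI), in which renal blood flow is stopped and then restored, was combined with MK8617 (3 libraries), a compound that blocks prolyl hydroxylase enzymes and so keeps hypoxia-inducible factors from being degraded. In the second, IRI was given alone (3 libraries). The sample titles name MK8617 in all 3 treated libraries, whereas the treatment entries of replicates 2 and 3 read MK8618 and MK8619; the titles were followed. The labels give no dose, age or sex, no time after injury (the deposited column names carry the tag 1d, which is not explained), and no uninjured kidney was analysed here. They do not say whether replicates came from separate animals, so p-values measure only the spread between these libraries, which may be technical.

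The tubule reclaims most filtered salt and water in the proximal tubule, where an apical sodium-proton exchanger, sodium-coupled phosphate and sulphate carriers and a basolateral Na,K-ATPase work together. The thick ascending limb and the distal nephron then adjust sodium, potassium, chloride and magnesium, and water follows through aquaporins in the water-permeable segments. Zinc, iron, copper and magnesium are carried by separate families that set how much of each metal a cell takes up, stores or exports.

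Library totals were 16835541 to 17577794 reads in the MK8617 group and 18697479, 19508497 and 18620621 reads in IRI replicates 1, 2 and 3, and the listed genes held 56.7 to 57.4% of them in the MK8617 group and 51.7 to 53.0% in IRI. Values below are normalised reads, meaning read counts that the authors divided by a size factor per library, unless FPKM is named. Fold changes are differences of mean log2(normalised reads + 1), IRI with MK8617 minus IRI, given with their SE. Adjusted p is from limma with the Benjamini-Hochberg method over 18811 genes, and a gene was called changed at an adjusted p below 0.05. Markers of other cells differed between the groups. Of 7 macrophage markers 6 were listed and 5 fell, with a summed level of 36.9 to 49.3 FPKM with MK8617 against 98.5 to 195 FPKM in IRI. Of 7 fibroblast and pericyte markers 4 were listed, of which 3 fell and 1 rose, with summed levels of 51.0 to 87.1 FPKM with MK8617 and 227 to 316 FPKM in IRI. Of 11 proximal tubule markers 5 were listed, of which 2 rose and 1 fell, with 932 to 1054 FPKM with MK8617 and 575, 605 and 232 FPKM in IRI replicates 1, 2 and 3. Of 6 thick ascending limb markers 4 were listed, of which 1 rose and 2 fell, with 619 to 1039 FPKM with MK8617 and 493 to 797 FPKM in IRI. All 5 cycling markers were listed and 4 of them fell, with 32.9 to 35.2 FPKM with MK8617 and 43.1, 102 and 52.1 FPKM in IRI replicates 1, 2 and 3. No listed marker was at 0 in all libraries, and no T or B cell or red blood cell marker was listed. In whole tissue, fewer cells of a type and less RNA per cell cannot be told apart, and the part of cell make-up in the results below was not tested.

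Of the 79 members, 75 had enough reads to be tested. With MK8617 28 of them rose, 26 fell and 21 were not past the threshold. Among all 6961 tested genes 35.7% rose, 38.7% fell and 74.3% changed in either direction; among the tested members 37.3% rose, 34.7% fell and 72.0% changed. The members as a whole were therefore close to the background of the table, and their median log2 fold change of -0.40 lay beside -0.31 for all tested genes. The counts for each role and list below are to be read beside the same shares, 35.7% and 38.7% of all tested genes. The 3 MK8617 values did not overlap the 3 IRI values in 67 of 75 members (89.3%), against 92.5% of all tested genes. The direction in which members moved went with their level. Of the 54 tested members with a mean of at least 5 CPM (reads scaled to the library total), 27 of 54 rose and 17 (31.5%) fell, where 37.7% and 38.4% of all tested genes at that level did so. Of the 21 tested members under 5 CPM, 1 rose and 9 fell, or 4.8% and 42.9%, against 26.8% and 39.8% of all tested genes. This split by level was made after the values had been seen and carries no test.

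**Figure D1:**
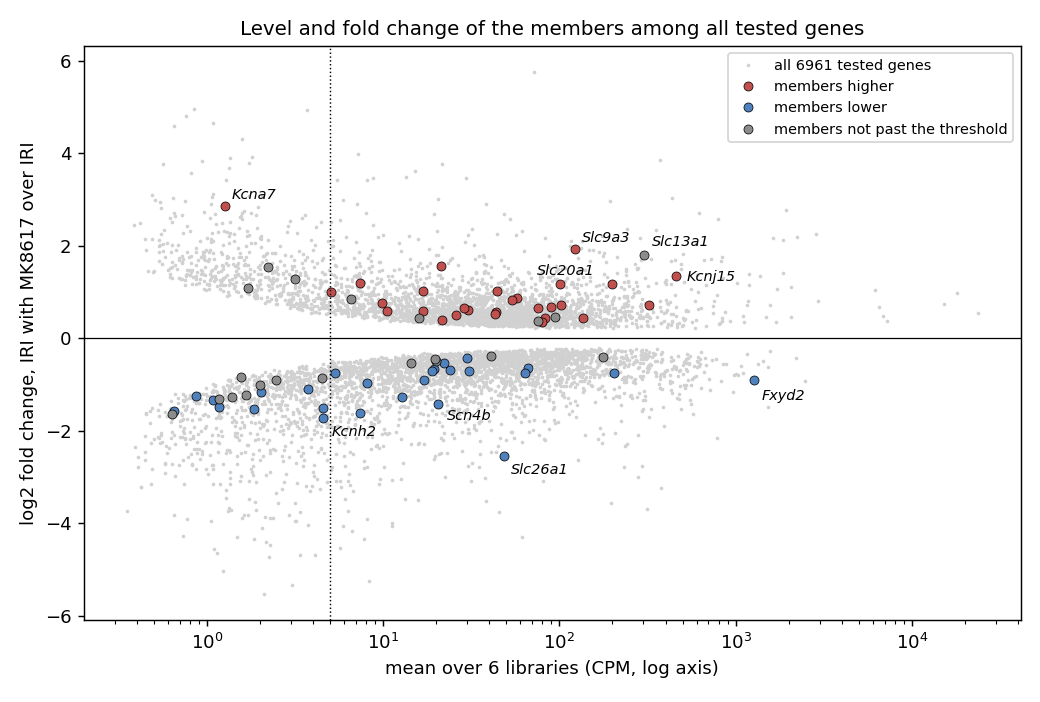
Mean level of each gene over the 6 libraries (CPM, log axis) against its log2 fold change, IRI with MK8617 over IRI, for all 6961 tested genes (grey) and the members (coloured by their call); the dotted line marks 5 CPM. Red members lie mostly to the right of the line, while 9 of the 10 called members to its left are blue.

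Compared per length, the members spanned a wide range of abundance. Fxyd2, the gamma subunit that modulates the Na,K-ATPase in the kidney, was the most abundant of them in both groups, at 221 ± 26.2 FPKM with MK8617 and 416 ± 21.1 FPKM in IRI (SD, n = 3 each). With MK8617 the next most abundant was Kcnj15, an inwardly rectifying potassium channel gene of the proximal tubule's basolateral membrane, at 103 ± 2.48 FPKM, against 42.3 ± 13.02 FPKM in IRI. In IRI the next most abundant was Slc9a3r1, a scaffold that anchors apical carriers such as NHE3, at 76.8 ± 5.03 FPKM with MK8617 and 135 ± 38.0 FPKM in IRI. Atp2a2 followed with MK8617, at 66.2 ± 7.95 FPKM against 40.5 ± 2.33 FPKM in IRI.

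The promoters of the members with the smallest adjusted p in each direction are printed here because hypoxia-inducible factors, which MK8617 stabilises, bind DNA at a core of 5 bases. The search was for ACGTG and GCGTG on both strands in the 300 bases around each gene start in RefSeq (250 before to 50 after). Capitals mark every match; CACGTG holds ACGTG on both strands, and CACGC is GCGTG on the other strand. All are from build GRCm38.p6 and are given 5′ to 3′ along the gene: Slc20a1 at chr2:129198523-129198822 on the + strand, Slc9a3 at chr13:74121163-74121462 on the + strand, Slc26a1 at chr5:108674747-108675046 on the - strand and Scn4b at chr9:45138374-45138673 on the + strand. Slc20a1 and Slc26a1 have 2 promoters each in the RefSeq table, and the one with the lower start coordinate is shown.
Slc20a1: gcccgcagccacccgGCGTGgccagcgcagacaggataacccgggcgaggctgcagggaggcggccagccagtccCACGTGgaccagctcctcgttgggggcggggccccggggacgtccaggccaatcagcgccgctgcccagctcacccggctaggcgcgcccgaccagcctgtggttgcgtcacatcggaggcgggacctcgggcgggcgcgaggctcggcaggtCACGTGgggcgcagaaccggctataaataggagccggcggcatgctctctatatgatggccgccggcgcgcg
Slc9a3: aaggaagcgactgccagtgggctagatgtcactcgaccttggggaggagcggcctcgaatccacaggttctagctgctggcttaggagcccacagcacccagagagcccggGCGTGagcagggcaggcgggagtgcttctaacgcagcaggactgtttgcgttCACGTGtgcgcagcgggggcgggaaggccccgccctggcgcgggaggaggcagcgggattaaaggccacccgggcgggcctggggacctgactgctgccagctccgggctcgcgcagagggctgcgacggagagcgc
Slc26a1: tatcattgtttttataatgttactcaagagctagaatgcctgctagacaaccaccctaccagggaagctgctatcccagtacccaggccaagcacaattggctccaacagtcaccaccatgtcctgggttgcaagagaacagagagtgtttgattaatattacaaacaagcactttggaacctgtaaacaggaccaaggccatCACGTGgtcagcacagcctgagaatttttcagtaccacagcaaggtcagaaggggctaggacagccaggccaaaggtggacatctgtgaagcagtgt
Scn4b: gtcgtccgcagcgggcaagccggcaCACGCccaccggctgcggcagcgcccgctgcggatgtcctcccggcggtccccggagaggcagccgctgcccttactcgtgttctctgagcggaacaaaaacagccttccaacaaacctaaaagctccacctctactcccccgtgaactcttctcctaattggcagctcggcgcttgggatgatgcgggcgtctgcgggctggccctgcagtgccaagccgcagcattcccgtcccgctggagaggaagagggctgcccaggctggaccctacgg

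Slc20a1 and Slc9a3, which rose, had 5 and 3 matches counted over both strands, and Slc26a1 and Scn4b, which fell, had 2 and 1. Of the members 54 had a promoter in the RefSeq table, with 72 promoters in all, and 54.2% of these held a match. The share was 16 of 27 (59.3%) for the promoters of members that rose and 14 of 28 for those of members that fell. It was 60.2% for listed genes and 43.8% for all 32851 promoters. A match is a run of letters and says nothing about binding.

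Carriers of sodium, protons, bicarbonate, sulphate and chloride moved in both directions with MK8617: of 11 tested members 3 rose, 5 fell and 3 were not past the threshold, with a median log2 fold change of -0.38. Slc9a3 and Slc26a1, both best known from the proximal tubule, had the largest called changes and went opposite ways. Slc9a3 (chromosome 13, 74121457 to 74169442, GRCm38) encodes the apical sodium-proton exchanger NHE3, which carries most proximal sodium reabsorption. Its normalised reads were 3041, 3195 and 4168 with MK8617, against 1090, 925 and 719 in IRI. Every MK8617 library was well above every IRI library. Slc9a3 averaged 3468 ± 611 with MK8617 and 912 ± 186 in IRI (SD, n = 3 each), 3.80-fold higher, a log2 fold change of 1.93 ± 0.17 (limma adjusted p = 0.000173). Slc26a1 (chromosome 5, 108669878 to 108675569) encodes a basolateral sulphate and oxalate exchanger. It had 197, 219 and 365 normalised reads with MK8617 and 1489, 1292 and 1600 in IRI. No library of either group came near the other group. The means were 260 ± 91.3 with MK8617 and 1460 ± 156 in IRI (SD, n = 3 each), 5.61 times as high in IRI, and the log2 fold change was -2.53 ± 0.21 (limma adjusted p = 0.000138). Per length, Slc26a1 stood at 3.57 FPKM with MK8617 and 20.3 FPKM in IRI, and Slc9a3 at 35.0 FPKM with MK8617 and 9.32 FPKM in IRI.

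Slc13a1, the apical sodium-sulphate cotransporter that works in series with Slc26a1, had 7929, 7004 and 8878 normalised reads with MK8617 and 4100, 4059 and 701 in IRI. The groups did not overlap, but IRI replicate 3 lay far under the other IRI libraries. With that spread the log2 fold change of 1.8 ± 0.65 did not pass the threshold (limma adjusted p = 0.0873). Without IRI replicate 3 it was 0.95 and passed (adjusted p = 0.000458). The summed proximal tubule markers were lowest in the same library, 232 FPKM against 575 and 605 FPKM in the other IRI libraries, and their part in the Slc13a1 value was not tested. Slc9a3r1 had 2751, 2470 and 2760 normalised reads with MK8617 and 5101, 5614 and 3173 in IRI. All IRI values were higher than all MK8617 values, IRI replicate 3 by the least. Slc9a3r1 fell by 0.76 ± 0.19 on the log2 scale (limma adjusted p = 0.0189). That call was lost when any MK8617 replicate or IRI replicate 1 or 2 was left out (log2 fold changes -0.79 to -0.60). It was also lost when each library's trends on gene length and GC content were removed (-0.53, limma adjusted p = 0.113).

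**Figure D2:**
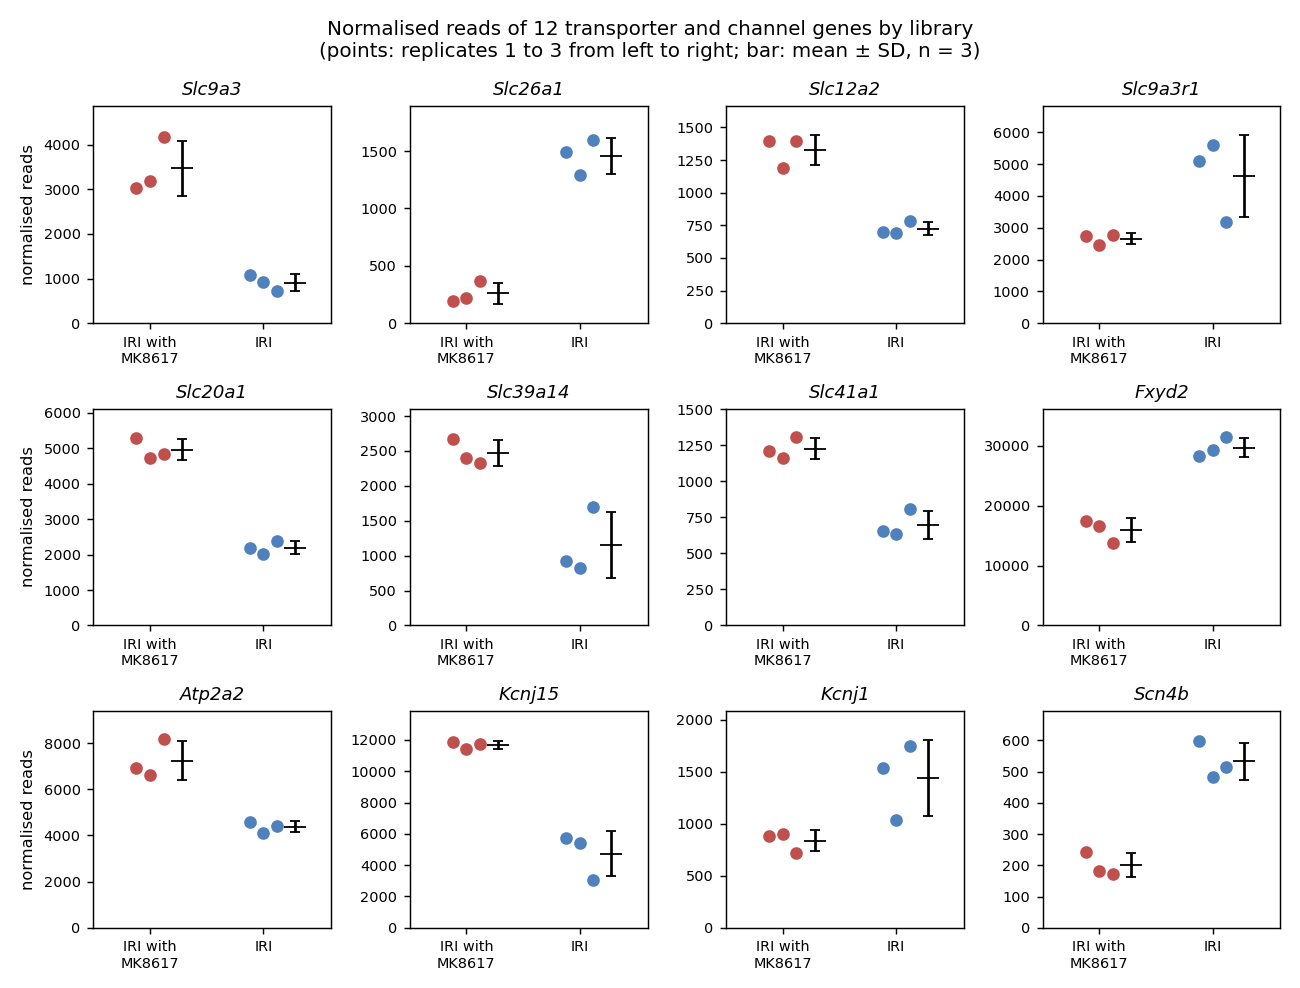
Normalised reads of 12 members in each library, with IRI with MK8617 on the left and IRI on the right of each panel (points, replicates 1 to 3; bars, mean ± SD, n = 3). Axes start at 0; the groups are apart in all 12 panels, and IRI replicate 3 departs from the other IRI libraries for Kcnj15, Slc9a3r1 and Slc39a14.

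Slc12a2 encodes NKCC1, a basolateral sodium-potassium-chloride cotransporter of secretory cells. It had 1395, 1191 and 1396 normalised reads with MK8617, against 696, 691 and 779 in IRI, so all MK8617 libraries were above all IRI libraries. It rose by 0.88 ± 0.11 (limma adjusted p = 0.000721). Slc26a11, a sulphate and chloride carrier, had 375, 367 and 337 with MK8617 and 230, 228 and 262 in IRI, which did not overlap. Its rise of 0.58 ± 0.13 (limma adjusted p = 0.0110) was lost without MK8617 replicate 1, where the value was 0.55 and the adjusted p 0.0524. Slc9a5, a sodium-proton exchanger best known from brain, had 47.1, 72.6 and 71.2 with MK8617 and 142, 241 and 213 in IRI. The IRI libraries were all higher, and Slc9a5 fell by 1.62 ± 0.27 on the log2 scale (limma adjusted p = 0.00282). The other carriers that fell were Slc9a2, an apical exchanger, and Slc9a9, an endosomal one, with log2 fold changes of -0.42 and -1.25 (limma adjusted p = 0.0212 and 0.0363). Both calls were lost when any 1 replicate was left out, except Slc9a2 without IRI replicate 3 (lost values -0.43 to -0.36 for Slc9a2 and -1.35 to -1.12 for Slc9a9). The authors' deposited table gives Slc9a9 an adjusted p of 0.0713. Slc4a7 and Slc4a3, bicarbonate carriers, had log2 fold changes of 0.45 and -0.38 and were not past the threshold (limma adjusted p = 0.0680 and 0.101). Slc4a3 passed without IRI replicate 2 (-0.53, adjusted p = 0.0205). Slc13a5, a citrate carrier, had too few reads to be tested: 3, 2 and 5 with MK8617 and 7, 22 and 10 in IRI.

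Both listed phosphate carriers rose. Slc20a1 (chromosome 2, 129198764 to 129211616) encodes PiT-1, a sodium-phosphate cotransporter found in most tissues. Its normalised reads were 5301, 4738 and 4837 with MK8617, against 2188, 2013 and 2379 in IRI. The groups lay far apart, and within each the libraries were close together. The means of 4959 ± 301 with MK8617 and 2193 ± 183 in IRI (SD, n = 3 each) made a log2 fold change of 1.18 ± 0.10 (limma adjusted p = 0.000171). A gene on the opposite strand, 9830144P21Rik, shares 13.1% of the exon bases of Slc20a1, and since the counting is not stated to use strand their reads may be mixed. Slc34a3, an apical renal phosphate cotransporter (NaPi-IIc), had 156, 102 and 106 with MK8617 and 69.1, 45.5 and 65.2 in IRI. These did not overlap, MK8617 replicate 1 being the highest. Its rise of 1.00 ± 0.27 (limma adjusted p = 0.0216) was lost without MK8617 replicate 1, MK8617 replicate 3 or IRI replicate 2 (0.81, 1.09 and 0.82). Of 8 genes of renal phosphate regulation, the scaffold Slc9a3r1 among them, 3 were listed. Fgfr1, a receptor for FGF23, rose by 0.64 (limma adjusted p = 0.00210), Slc9a3r1 fell as described, and Kl, its co-receptor, had a log2 fold change of 0.51 (limma adjusted p = 0.164).

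Metal carriers also split: of 11 tested members 5 rose, 4 fell and 2 were not past the threshold, with a median log2 fold change of 0.38. The 5 that rose carry zinc or magnesium, but Slc39a7, Slc39a11 and Slc41a3, of the same families, were among the 4 that fell. The gene of ferroportin was just short of the threshold. Slc39a14 encodes ZIP14, which takes up zinc, manganese and non-transferrin iron. It had 2675, 2399 and 2322 normalised reads with MK8617, against 929, 829 and 1695 in IRI. No MK8617 library overlapped the IRI libraries, of which replicate 3 was highest. The log2 fold change was 1.17 ± 0.23 (limma adjusted p = 0.00631). Slc39a10, a zinc importer of the plasma membrane, had 1049, 925 and 1201 with MK8617 and 584, 614 and 390 in IRI, again without overlap, and rose by 1.02 ± 0.18 (limma adjusted p = 0.00365). Slc41a1, a magnesium carrier, had 1213, 1160 and 1308 with MK8617 and 653, 633 and 809 in IRI. The spread within groups was small beside the gap, and it rose by 0.82 ± 0.12 (limma adjusted p = 0.00157). Slc30a4, which loads zinc into vesicles, rose by 0.58 (limma adjusted p = 0.0202). That call was lost without MK8617 replicate 1 or 3 or IRI replicate 1 or 2 (0.48 to 0.61). Slc41a2 rose by 0.40 (limma adjusted p = 0.0442), a call lost when any 1 replicate but MK8617 replicate 2 was left out (0.35 to 0.43).

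The metal carriers that fell included Slc39a7, which releases zinc from the endoplasmic reticulum. It had 55.3, 35.2 and 37.2 normalised reads with MK8617 and 123, 101 and 138 in IRI, without overlap, and fell by 1.5 ± 0.26 on the log2 scale (limma adjusted p = 0.00358). Its value is uncertain, because 80.7% of its exon bases are shared with Gm20427 on the same strand. Slc39a11, a zinc carrier of internal membranes, had 238, 305 and 255 with MK8617 and 408, 524 and 343 in IRI. Slc41a3, a relative of Slc41a1, had 63.5, 74.7 and 75.5 with MK8617 and 133, 120 and 107 in IRI. For both genes all IRI libraries were higher. They fell by 0.66 ± 0.18 and 0.74 ± 0.21 on the log2 scale (limma adjusted p = 0.0242 and 0.0264). The Slc39a11 call was lost without MK8617 replicate 1 or 3 or IRI replicate 1 or 2 (-0.68 to -0.50), and the Slc41a3 call without any 1 MK8617 replicate or IRI replicate 1 or 2 (-0.79 to -0.66).

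Slc11a1 encodes NRAMP1, a metal carrier of macrophage phagosomes. It had 83.0, 126 and 78.7 normalised reads with MK8617 and 225, 230 and 118 in IRI. The groups overlapped, MK8617 replicate 2 being above IRI replicate 3, and the fall of 0.96 ± 0.30 on the log2 scale was only just past the threshold (limma adjusted p = 0.0442). It was lost without MK8617 replicate 1 or 3 or IRI replicate 1 or 2 (-0.87 to -0.79). It was also lost with TMM scaling, FPKM values or only genes of at least 5 CPM (limma adjusted p = 0.0546, 0.0593 and 0.0585). The same held with each library's trend on gene length, or on length and GC content, removed (limma adjusted p = 0.0522 and 0.0744). The summed macrophage markers given above were also lower with MK8617, and among them C1qc fell by 1.54 on the log2 scale (limma adjusted p = 0.000805); their part in the Slc11a1 value was not tested. Slc40a1, ferroportin, the iron exporter, had 1352, 1601 and 1608 with MK8617 and 1028, 1357 and 1123 in IRI. MK8617 replicate 1 lay just under IRI replicate 2. The log2 fold change of 0.38 ± 0.13 did not pass (limma adjusted p = 0.0534) but did without IRI replicate 2 (0.50, adjusted p = 0.0191), and the authors' deposited table gives it an adjusted p of 0.0457. Atp7b, a copper pump, had a log2 fold change of -0.84 (limma adjusted p = 0.0746). Slc30a8, a zinc carrier best known from pancreatic beta cells, had 5, 8 and 6 reads with MK8617 and 0 in each IRI library, at least 2.37-fold higher against a floor of 3 reads per library, which covers counting error only; it was too low to be tested.

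Other genes of metal handling gave further context. Of 20 genes of cellular iron handling 12 were listed and 11 tested. Of these 11, 7 rose, 1 fell and 3 were not past the threshold, where 35.7% of all tested genes rose and 38.7% fell. Their median log2 fold change was 0.45, beside -0.31 for all tested genes. Hmox1, which breaks down haem, had 10208, 12489 and 9416 normalised reads with MK8617 and 6162, 5532 and 5020 in IRI and rose by 0.94 (limma adjusted p = 0.00148). Fth1, the ferritin heavy chain that stores iron, rose by 0.48 (limma adjusted p = 0.00939). Ireb2, an iron sensor, rose by 0.55 (limma adjusted p = 0.00284). Steap3, an endosomal ferrireductase, fell by 0.97 on the log2 scale (limma adjusted p = 0.00249), and Tfrc, the transferrin receptor, had a log2 fold change of 0.45 (limma adjusted p = 0.0562). Of 11 genes of zinc and copper handling 6 were listed and tested, of which 1 rose and 3 fell, beside the same shares of all tested genes. Their median was -0.85. The gene that rose was Mt2, a metallothionein that binds zinc and copper: 2378, 2321 and 2846 normalised reads with MK8617 against 44.5, 22.8 and 91.1 in IRI. It had the largest change of this list, a log2 fold change of 5.76 (limma adjusted p = 6.16e-05). Atox1 and Ccs, copper chaperones, and Commd1, a regulator of copper export, fell by 0.96, 0.75 and 1.78 on the log2 scale (limma adjusted p = 0.000570, 0.0218 and 7.30e-05).

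**Figure D3:**
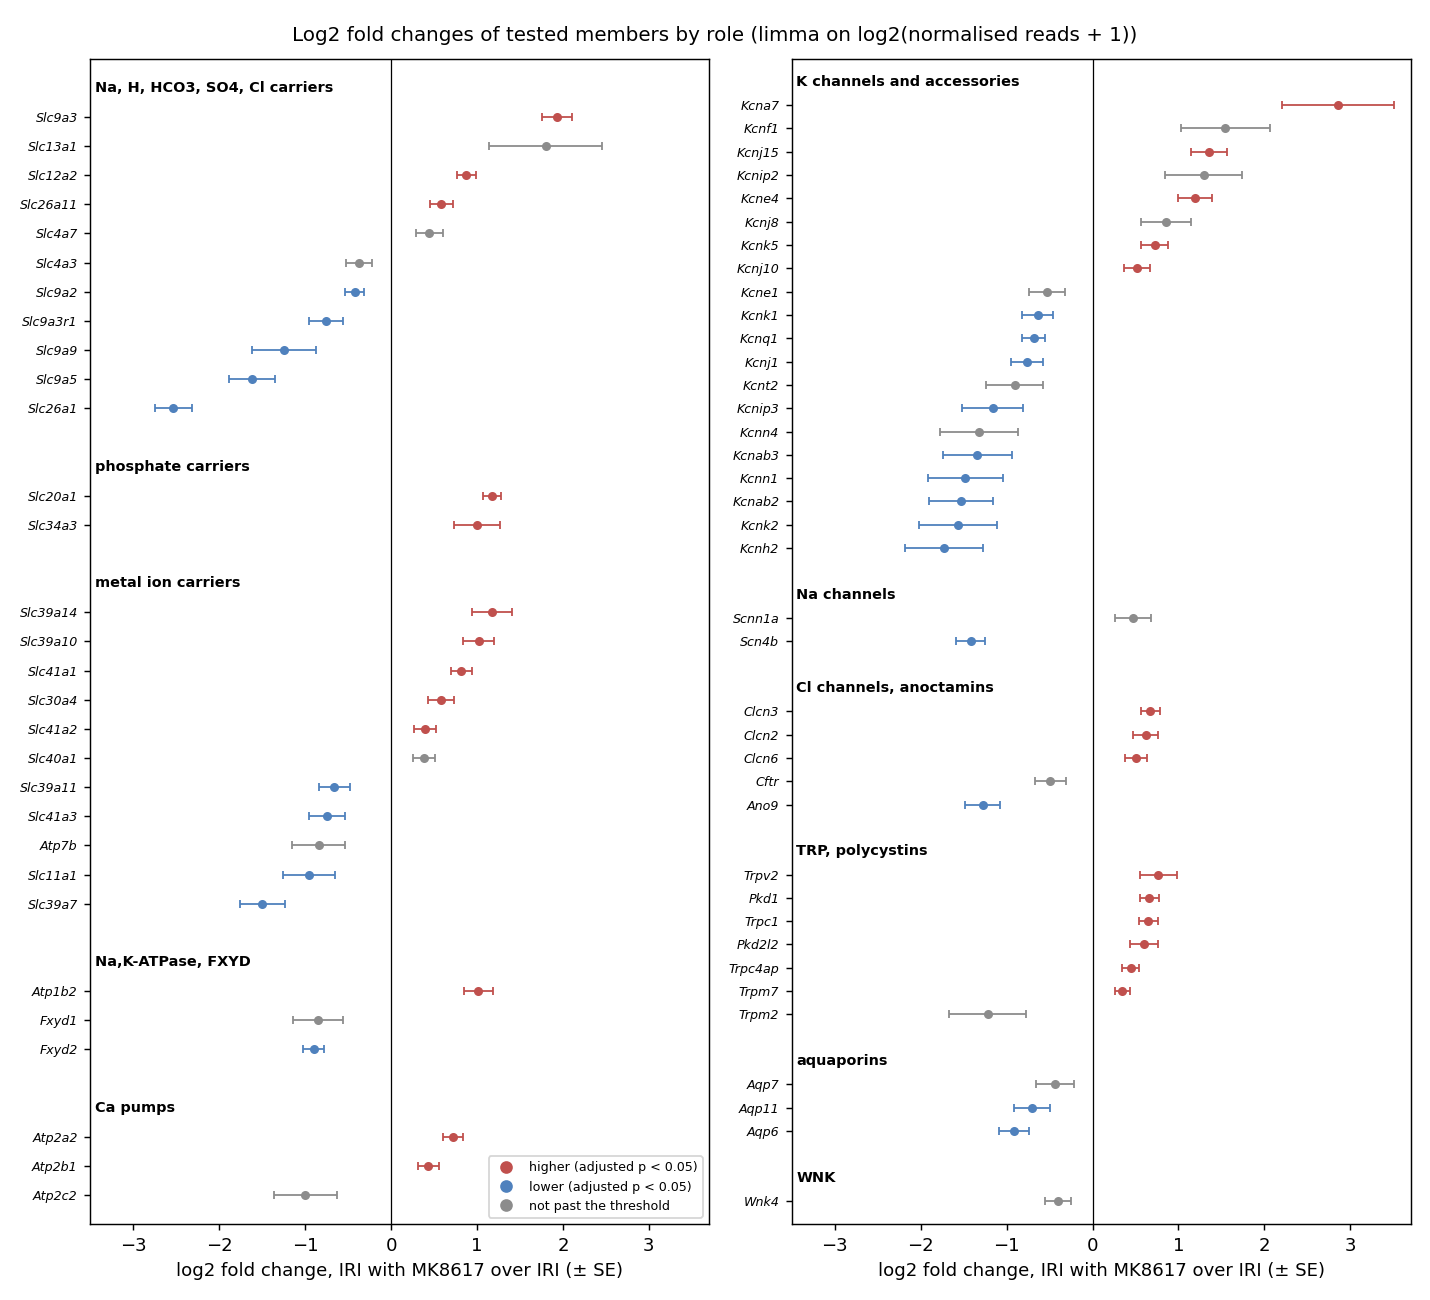
Log2 fold change of the tested members that are reported, IRI with MK8617 over IRI, with its SE (limma), grouped by role; red, called higher; blue, called lower; grey, not past the threshold. Phosphate carriers and calcium pumps hold no called fall and aquaporins and sodium channels no called rise, while potassium channels spread from -1.73 (Kcnh2) to 2.86 (Kcna7).

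Among Na,K-ATPase subunits and FXYD regulators, 5 of 14 annotated genes were listed: 1 rose, 2 fell and 2 were not past the threshold, with a median log2 fold change of -0.90. Fxyd2 had 17445, 16632 and 13746 normalised reads with MK8617, against 28189, 29335 and 31408 in IRI. The highest MK8617 library was far under the lowest IRI library. Fxyd2 fell by 0.90 ± 0.12 on the log2 scale (limma adjusted p = 0.00113). Atp1b2, a beta subunit that is abundant in brain, had 410, 396 and 401 with MK8617 and 162, 195 and 248 in IRI. The MK8617 libraries were nearly equal and all higher, and Atp1b2 rose by 1.01 ± 0.17 (limma adjusted p = 0.00292). Per length it lay far below Fxyd2, at 5.47 FPKM with MK8617 and 2.78 FPKM in IRI. Fxyd1, another FXYD protein, had a log2 fold change of -0.85 and was not past the threshold (limma adjusted p = 0.0576). It passed without IRI replicate 1 (-1.08).

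Of the 3 listed calcium pumps 2 rose. Atp2a2 encodes SERCA2, which returns calcium to the endoplasmic reticulum. It had 6902, 6620 and 8189 normalised reads with MK8617 and 4600, 4117 and 4428 in IRI, without overlap, and rose by 0.72 ± 0.11 (limma adjusted p = 0.00225). Atp2b1, a plasma membrane calcium pump, had 1668, 1477 and 1964 with MK8617 and 1154, 1255 and 1351 in IRI. The nearest libraries of the groups were close. Its rise of 0.44 ± 0.12 (limma adjusted p = 0.0297) was lost without MK8617 replicate 1 or 3 or IRI replicate 1 or 2 (0.33 to 0.45), and its value was 0.17 when each library's trend on gene length was removed (adjusted p = 0.479). Atp2c2, a Golgi pump, averaged 22.4 ± 1.03 with MK8617 and 49.0 ± 23.3 in IRI (SD, n = 3 each) and was not past the threshold (limma adjusted p = 0.0733). Of 20 other genes of calcium entry, release and renal calcium handling 8 were listed. Their median log2 fold change was -0.42, beside -0.31 for all tested genes. None of the 8 rose and 4 fell, where 35.7% and 38.7% of all tested genes did so. Among these 4 were Micu2, which gates mitochondrial calcium uptake, and Itpr2, a release channel of the endoplasmic reticulum, with log2 fold changes of -0.41 and -0.43 (limma adjusted p = 0.0185 and 0.0438).

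Potassium channels were the largest set, with 24 of 94 annotated genes listed and 22 tested. With MK8617 6 rose, 9 fell and 7 were not past the threshold, and the median log2 fold change was -0.66. Kcnj15 (chromosome 16, 95257558 to 95300260) had 11888, 11398 and 11741 normalised reads with MK8617, against 5714, 5419 and 3078 in IRI. The MK8617 libraries were nearly equal, and all were above the IRI libraries, of which replicate 3 was again the lowest. It rose by 1.35 ± 0.21 (limma adjusted p = 0.00212). The summed proximal tubule markers of that library were lowest too, and their part in this value was not tested. Kcnk5, a pore gene of proximal tubule potassium conductance, had 2505, 2167 and 2087 with MK8617 and 1713, 1354 and 1089 in IRI. It was higher in every MK8617 library and rose by 0.72 ± 0.16 (limma adjusted p = 0.0104), a call lost without MK8617 replicate 1 (0.64, adjusted p = 0.0507). Kcne4, an accessory subunit that inhibits voltage-gated channels, had 178, 159 and 218 with MK8617 and 83.3, 73.8 and 83.4 in IRI. There was no overlap, and it rose by 1.19 ± 0.20 (limma adjusted p = 0.00276).

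Kcna7, a voltage-gated channel gene, had the largest fold change of any tested member, at low counts: 25.6, 44.8 and 47.9 normalised reads with MK8617 and 5.68, 10.9 and 0.96 in IRI. The groups were apart, and the log2 fold change was 2.86 ± 0.65 (limma adjusted p = 0.0115). It was lost without MK8617 replicate 3 (2.70, adjusted p = 0.0608). Kcnj10, the basolateral potassium channel gene of the distal convoluted tubule, had 1049, 795 and 884 with MK8617 and 767, 581 and 564 in IRI. MK8617 replicate 2 was barely above IRI replicate 1. Its rise of 0.52 ± 0.15 (limma adjusted p = 0.0331) was lost without MK8617 replicate 1 or 3 or IRI replicate 2 or 3 (0.41 to 0.53). Of 6 markers of the distal convoluted and connecting tubule 4 were listed and 3 rose, with summed levels of 30.5 to 58.3 FPKM with MK8617 and 22.4 to 27.8 FPKM in IRI, and their part in the Kcnj10 value was not tested. Kcnf1, a silent subunit, had 70.7, 41.6 and 57.4 with MK8617 and 44.5, 12.8 and 10.5 in IRI. These overlapped, since IRI replicate 1 was above MK8617 replicate 2, and its log2 fold change of 1.54 ± 0.52 did not pass (limma adjusted p = 0.0546). Without IRI replicate 1 it passed, at 2.16 (adjusted p = 0.00754).

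Kcnj1, which encodes ROMK, the apical potassium secretion channel of the thick ascending limb and collecting duct, fell. It had 886, 900 and 720 normalised reads with MK8617 and 1538, 1037 and 1748 in IRI. All IRI libraries were higher, replicate 2 by the least. The fall of 0.76 ± 0.19 on the log2 scale (limma adjusted p = 0.0160) was lost without MK8617 replicate 3 or IRI replicate 1 (-0.66 and -0.69). It was also lost with length and GC trends removed (-0.71, limma adjusted p = 0.0609). Of 7 principal cell markers 3 were listed and 2 tested, of which 1 fell. Their summed levels were 42.0 to 74.5 FPKM with MK8617 and 82.2 to 103.8 FPKM in IRI. The part of these and of the thick ascending limb markers given above in the Kcnj1 value was not tested. Kcnq1, a voltage-gated channel gene of epithelia and heart, had 311, 341 and 329 with MK8617 and 549, 452 and 588 in IRI, without overlap, and fell by 0.68 on the log2 scale (limma adjusted p = 0.00557). Kcnk1, a background channel gene, had 1013, 925 and 808 with MK8617 and 1290, 1171 and 1895 in IRI. The groups were apart, IRI replicate 3 being far the highest. It fell by 0.64 on the log2 scale (limma adjusted p = 0.0263), a call lost without any 1 MK8617 replicate (-0.71 to -0.55). The Kcnk1 call was also lost with the trend on gene length removed (-0.53, limma adjusted p = 0.0702). With length and GC trends removed the value was -0.45 (limma adjusted p = 0.1625).

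The other 6 potassium channel genes that fell were at low levels. Kcnh2, a voltage-gated channel gene known from heart, had 16.4, 59.8 and 42.5 normalised reads with MK8617 and 125, 82.9 and 158 in IRI. Both groups were spread widely without overlapping, and it fell by 1.73 ± 0.46 on the log2 scale (limma adjusted p = 0.0216). That call was lost without MK8617 replicate 3 or IRI replicate 1 (-1.87 and -1.69). Kcnab2, an accessory subunit, had 14.3, 20.3 and 13.8 with MK8617 and 49.2, 68.3 and 32.6 in IRI. All IRI libraries were higher, and it fell by 1.53 ± 0.37 on the log2 scale (limma adjusted p = 0.0145). That call was lost without MK8617 replicate 1 or 3 (-1.46 and -1.44). Kcnn1, a calcium-activated channel gene, had 13.3, 5.34 and 14.9 with MK8617 and 26.5, 30.97 and 34.5 in IRI. These did not overlap, and the fall of 1.48 ± 0.44 on the log2 scale (limma adjusted p = 0.0345) was lost when any 1 replicate but MK8617 replicate 3 was left out (-1.65 to -1.06). Kcnk2, Kcnab3 and Kcnip3 had log2 fold changes of -1.56, -1.34 and -1.16 (limma adjusted p = 0.0315, 0.0374 and 0.0382). For Kcnip3 the call was lost without any 1 replicate but MK8617 replicate 2 (-1.29 to -0.86), for Kcnk2 without any 1 but MK8617 replicate 1 (-1.62 to -1.28), and for Kcnab3 without MK8617 replicate 1 or 3 or IRI replicate 1 or 3 (-1.36 to -1.14). The authors' deposited table gives Kcnk2 an adjusted p of 0.0610. With DESeq2 neither Kcnk2 nor Kcnab3 passed (DESeq2 adjusted p = 0.0733 and 0.0547). The Kcnab3 call was also lost with the replicate number in the fit (limma adjusted p = 0.0628) or with the trend on gene length removed (limma adjusted p = 0.0503). With length and GC trends removed, Kcnab3 and Kcnip3 did not pass (limma adjusted p = 0.0691 and 0.0636). A430027H14Rik on the opposite strand shares 12.2% of the exon bases of Kcnk2. Kcnip2, Kcnj8, Kcne1, Kcnt2 and Kcnn4 were not past the threshold, with log2 fold changes of 1.29, 0.85, -0.53, -0.91 and -1.32. Kcnip2 and Kcnj8 passed without IRI replicate 2 (1.58 and 1.18), Kcne1 without IRI replicate 3 (-0.68), and Kcnn4 without MK8617 replicate 2 or IRI replicate 3 (-1.66 and -1.58). Kcnk13 had 1, 1 and 3 reads with MK8617 and 18, 17 and 3 in IRI and was not tested.

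**Figure D4:**
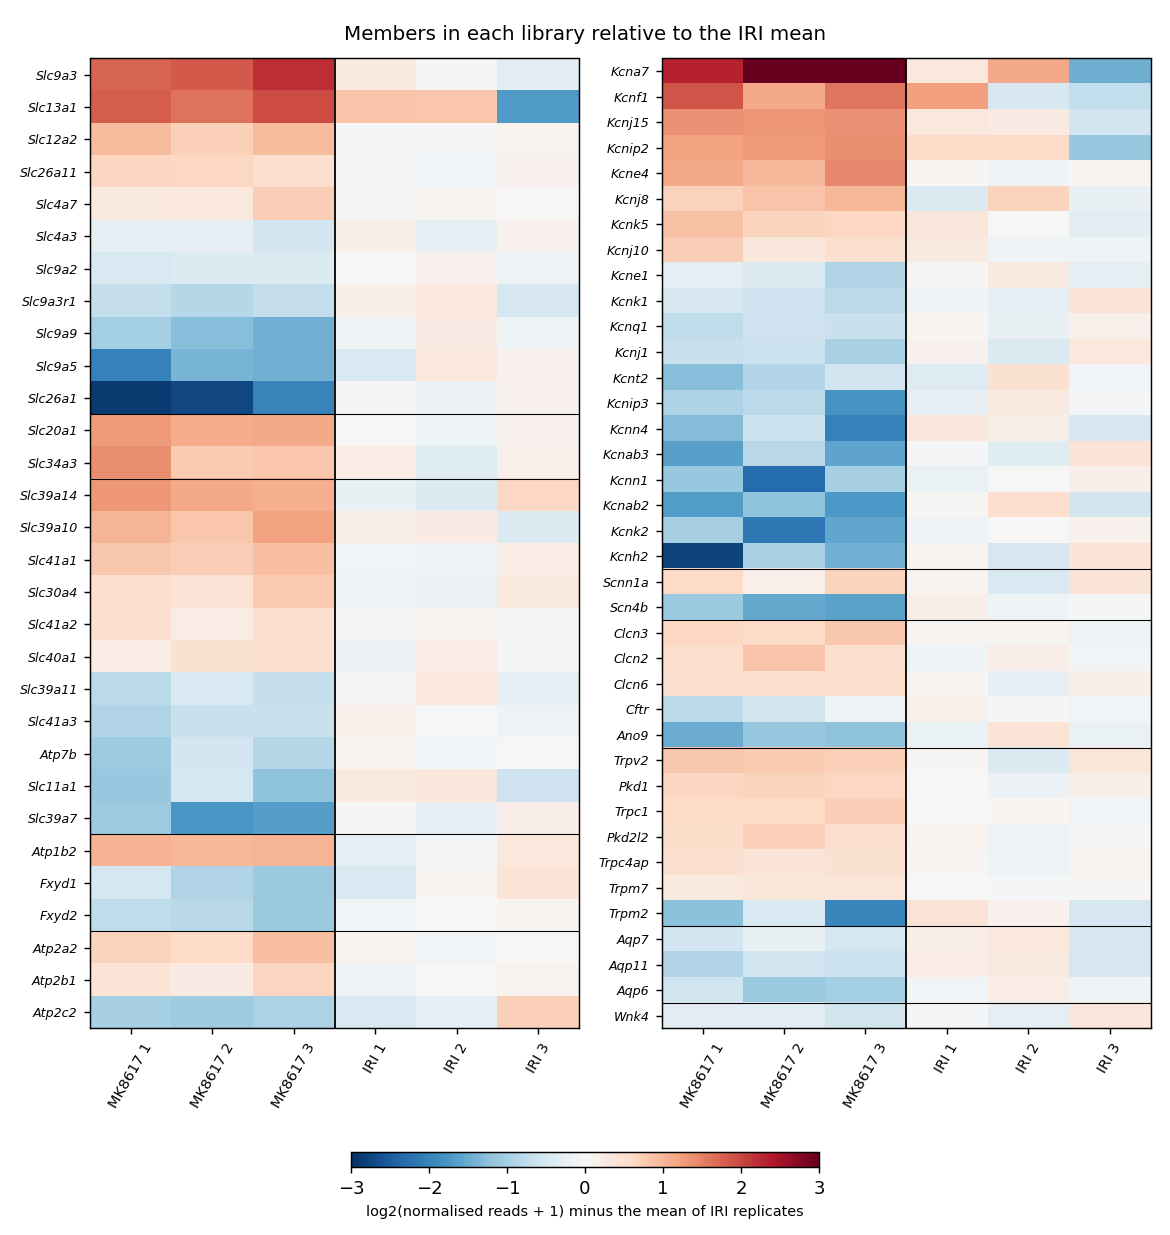
The same members in each library as log2(normalised reads + 1) minus the mean of the IRI replicates (colour, clipped at -3 and 3), ordered by role and by fold change, with MK8617 libraries left of the vertical line and IRI libraries right of it. IRI replicate 3 stands out for Slc13a1 and Kcnip2, and the 3 MK8617 libraries share one sign for most members.

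Sodium channel genes were represented by 3 members, of which 2 fell. Scn4b (chromosome 9, 45138395 to 45154152) encodes a beta subunit of voltage-gated sodium channels. Its normalised reads were 244, 182 and 173 with MK8617, against 598, 484 and 516 in IRI. The groups were well apart. It averaged 200 ± 38.3 with MK8617 and 533 ± 59.1 in IRI (SD, n = 3 each) and fell by 1.42 ± 0.17 on the log2 scale (limma adjusted p = 0.000586). Scnn1a, the alpha subunit of the epithelial sodium channel that takes up sodium in the distal nephron, had 2104, 1556 and 2200 with MK8617 and 1467, 1015 and 1822 in IRI. MK8617 replicate 2 lay under IRI replicate 3, and the log2 fold change of 0.47 ± 0.21 did not pass (limma adjusted p = 0.150). Without IRI replicate 3 it passed, at 0.66 (adjusted p = 0.0266). Wnk4, a kinase that sets sodium-chloride cotransport in the distal convoluted tubule, had 2798, 2878 and 2421 with MK8617 and 3434, 2932 and 4465 in IRI. The nearest libraries differed by very little, and the log2 fold change of -0.40 ± 0.16 did not pass (limma adjusted p = 0.0885) but did without IRI replicate 2 (-0.54, adjusted p = 0.0277). The authors' deposited table gives Wnk4 an adjusted p of 0.0442.

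Of 14 other regulators of distal salt transport 8 were listed, of which 3 rose, 1 fell and 4 were not past the threshold, with a median log2 fold change of 0.43. Nedd4l, the ubiquitin ligase that removes the epithelial sodium channel from the membrane, had 3452, 3424 and 3040 normalised reads with MK8617 and 1908, 1618 and 1886 in IRI. The groups lay apart, and it rose by 0.88 ± 0.11 (limma adjusted p = 0.000725). Oxsr1, a kinase activated by WNK kinases, rose by 0.41 (limma adjusted p = 0.0478). Nr3c2, the mineralocorticoid receptor, had 170, 107 and 169 with MK8617 and 230, 218 and 266 in IRI. All IRI libraries were higher, and it fell by 0.70 on the log2 scale (limma adjusted p = 0.0390).

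Chloride channel and anoctamin genes moved both ways: of 6 listed, 3 rose, which were Clcn2, Clcn3 and Clcn6, and 2 fell, Ano9 among them. Clcn3, a chloride-proton exchanger of endosomes, had 1913, 1851 and 2159 normalised reads with MK8617 and 1299, 1305 and 1109 in IRI. There was no overlap, and it rose by 0.67 ± 0.11 (limma adjusted p = 0.00249). That value was 0.29, short of the threshold, when trends on gene length and GC content were removed (adjusted p = 0.0876). Clcn2, a plasma membrane channel gene, and Clcn6, of late endosomes, rose by 0.62 and 0.50 (limma adjusted p = 0.0119 and 0.0208); the Clcn6 call was lost without any 1 MK8617 replicate or IRI replicate 2 (0.38 to 0.52). Ano9, a member of the anoctamin family of channels and scramblases, had 113, 143 and 137 with MK8617 and 274, 421 and 277 in IRI, all IRI libraries being higher. It fell by 1.28 ± 0.21 on the log2 scale (limma adjusted p = 0.00249). Cftr had a log2 fold change of -0.49 (limma adjusted p = 0.0698) and passed without MK8617 replicate 3 (-0.67). Bsnd, which encodes the accessory subunit barttin, had 233, 170 and 149 with MK8617 and 424, 383 and 371 in IRI. It was lower in every MK8617 library and fell by 1.11 ± 0.18 on the log2 scale (limma adjusted p = 0.00262). Bsnd belongs to a list of 18 further anion channel genes, of which 7 were listed, 2 rose and 4 fell, with a median log2 fold change of -0.41. Of all tested genes 35.7% rose and 38.7% fell, with a median of -0.31.

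Of 8 tested TRP channel and polycystin genes 6 rose, none fell and 2 were not past the threshold. Their median log2 fold change was 0.62, beside -0.31 for all tested genes, of which 35.7% rose and 38.7% fell. Pkd1, the polycystin gene most often mutated in dominant polycystic kidney disease, had 1648, 1694 and 1614 normalised reads with MK8617 and 1045, 920 and 1190 in IRI. The MK8617 libraries were nearly equal and all higher, and Pkd1 rose by 0.66 ± 0.11 (limma adjusted p = 0.00301). Trpc1, a cation channel gene, had 607, 612 and 675 with MK8617 and 407, 418 and 380 in IRI. These too were apart, with little spread, and it rose by 0.65 ± 0.11 (limma adjusted p = 0.00282). Trpv2, Pkd2l2, Trpc4ap and Trpm7 rose by 0.76, 0.60, 0.44 and 0.35 (limma adjusted p = 0.0281, 0.0236, 0.0116 and 0.0173). Trpc4ap is no channel but was first described as a partner of one, and Trpm7 is a magnesium-permeable channel with a kinase domain. Fam13b on the opposite strand shares 10.9% of the exon bases of Pkd2l2. The Trpv2 and Pkd2l2 calls were lost without any 1 MK8617 replicate or IRI replicate 2, and that of Trpv2 also without IRI replicate 1 (0.56 to 0.79 for Trpv2 and 0.52 to 0.64 for Pkd2l2). The Trpm7 call was lost without MK8617 replicate 2 or IRI replicate 1 or 2 (0.33 to 0.35). With the trend on gene length removed, the rises of Trpm7, Trpc4ap and Pkd2l2 did not pass the threshold (0.14, 0.28 and 0.50). With the trend on GC content removed as well, the Trpm7 value was 0.01. Trpm2 had a log2 fold change of -1.22 and was not past the threshold (limma adjusted p = 0.0743). It passed without MK8617 replicate 2 or IRI replicate 3 (-1.60 and -1.48).

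Aquaporins held 3 listed members of 11 annotated, of which 2 fell. Aqp6, an intracellular water and anion channel gene of intercalated cells, had 260, 184 and 194 normalised reads with MK8617 and 375, 459 and 360 in IRI. The groups did not overlap, and it fell by 0.91 ± 0.18 on the log2 scale (limma adjusted p = 0.00549). Intercalated cell markers, 5 of 7 listed, summed to 90.7 to 133 FPKM with MK8617 and 80.4 to 98.9 FPKM in IRI. Of these 5, Slc4a9 rose with a log2 fold change of 1.67, and Atp6v1g3 and Slc4a1 fell by 1.26 and 1.72 on the log2 scale (limma adjusted p = 0.000250, 0.00237 and 0.0128), and the list's median was -0.45. Their part in the Aqp6 value was not tested. Aqp11, whose product lies in the endoplasmic reticulum of proximal tubule cells, had 223, 269 and 262 with MK8617 and 482, 495 and 289 in IRI. IRI replicate 3 was just above the highest MK8617 library. The fall of 0.71 ± 0.21 on the log2 scale (limma adjusted p = 0.0361) was lost when any 1 replicate but IRI replicate 3 was left out (-0.76 to -0.57). Aqp7, a water and glycerol channel gene of the proximal tubule, had 265, 342 and 277 with MK8617 and 456, 491 and 278 in IRI. They overlapped in IRI replicate 3, and the log2 fold change of -0.44 was not past the threshold (limma adjusted p = 0.211). Without IRI replicate 3 it passed, at -0.69 (adjusted p = 0.00874).

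Members that rose were longer than those that fell: the median summed exon length was 5868 bases for the 28 that rose and 4027 bases for the 26 that fell, and GC content was 50.3% and 54.9%. Among all tested genes the same held, with 4900 bases and 48.7% GC for those that rose and 3001 bases and 51.5% GC for those that fell. With the trend of each library on gene length removed, 22 members rose and 26 fell, and the rises of Atp2b1, Trpm7, Trpc4ap, Kcnj10, Clcn6, Pkd2l2 and Slc41a2 were no longer past the threshold (0.14 to 0.50). With trends on length and then GC content removed, 23 rose and 20 fell.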

How the data were processed

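RNA was sequenced from 6 mouse kidney samples, 3 per group. The submitters' processing notes list HISAT2 2.0.5, featureCounts 1.5.0-p3, fastp, CASAVA 1.8 and, for testing, DESeq2 1.20.0, and name the human build GRCh38, although the deposited identifiers are mouse genes. The deposited signal is gene counts that the authors divided by a size factor per library. Multiplying back gave whole reads for 100% of values (tolerance 0.001 reads), and these equalled the deposited count of IRI replicate 3 in all 7340 genes. FPKM values, as deposited by the authors, are counts per length and library total, and gave each library's total. The deposited table also holds the authors' log2 fold change, p-value and adjusted p-value per gene; the largest listed p-value is 0.0499, and 11560 genes of their test are not listed. Another 13 columns without name or values were not used, and 11 symbols that had become dates were restored by identifier. Of 7340 identifiers 7338 matched GENCODE M21 (GRCm38), and promoters are from RefSeq.

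limma 3.58.1 (trend, robust) was run on log2(value + 1) of all genes that passed filterByExpr of edgeR 4.0.16 on the recovered reads (6961; 379 removed), without covariates, and p-values were adjusted over the 18811 genes that the deposited adjusted p-values imply. The added 1 understates changes of low genes. The tested genes had already been selected by the authors' test on the same libraries. The limma p-values are therefore not independent of that selection, and the variance trend was fitted to selected genes only. The scripts were tested on simulated data with known fold changes, in which few genes changed and none were selected by p-value. That test does not measure error rates in the selected table. Within groups, no pair of libraries was equal within counting noise (chi-square per degree of freedom 17.27 to 47.53). Genes with full values were, per role, the 2 with the smallest adjusted p, the 6 largest rises and falls with a mean of at least 1 CPM, a list of well-known renal members, and members called against most of their role; a few other members were given values after these had been seen. Values of some members and list genes are not reported here, although counts include them. Members and lists were chosen with earlier results of these data known. Alternatives were other pseudocounts (0.5 and 10), filters, scalings, FPKM with 0.1 added, edgeR, DESeq2 1.42.0, a replicate block, trends on length and GC, and leaving out each replicate.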

Additional observations from a re-analysis of the deposited data

How the results depend on the processing

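No member changed the sign of its fold change under any of the 20 other settings, and 14 of the 28 members that rose and 9 of the 26 that fell passed the threshold in each setting that tested them (Slc39a7, below 5 CPM, in 19); among these were Slc9a3, Slc20a1, Slc26a1, Slc12a2, Kcnj15, Fxyd2, Scn4b and Pkd1. For single genes above, not every setting in which a call was lost is named. Leaving out 1 replicate at a time gave 18 to 28 members that rose and 11 to 24 that fell, and 1488 to 2446 rises among all tested genes. With only genes of at least 5 CPM tested, 15 members fell, since fewer genes were tested. Adjusting over the tested listed genes only gave 35 rises and 38 falls among members. TMM scaling gave 32 and 23, DESeq2 30 and 25 and edgeR 28 and 28. The authors' deposited adjusted p-values gave 33 and 30 over all 79 members; Slc9a9 and Kcnk2, called here, missed the threshold there, and 8 tested members not called here passed it. Removing the length trend moved the median of all tested genes by 0.105 on the log2 scale, and removing length and GC trends moved it by 0.153. The labels name no pairing by replicate number, so whether the samples were paired is not known. Correlations of same-numbered libraries were 0.0206, 0.116 and 0.115. Each library correlated best with its own number, a hint from the data and not the design. With the replicate block 31 members rose and 27 fell. Depth limits the 25 members under 5 CPM, of which 4 could not be tested.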
